A study of Saccharomyces cerevisiae with 12 samples.

Results

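The 9 genes TOR2, AVO1, SLM1, SLM2, PKH1, PKH2, PKH3, YPK1 and YPK2 of the yeast TORC2, Pkh and Ypk kinase branch were followed across 4 groups of arrays. They were chosen by name as subunits and effectors of the kinase complex TORC2 together with the Pkh and Ypk kinases. Earlier results of these data were known when they were chosen. All 9 were measured, among 5449 genes in all, and each was read by 1 probe set of the kind designed for a single gene. Affymetrix yeast arrays were hybridised with total RNA of Saccharomyces cerevisiae BY4741, a haploid laboratory strain, and of a pat1 mutant in the same background. Each strain had 3 biological samples, and each sample gave an array without drug and an array with 30 µg/ml Congo Red. The labels give 2 h for treated and untreated arrays alike, and the 4 groups had 3 arrays each. Congo Red disturbs the assembly of the cell wall by binding to its chitin and glucan, and Pat1 is a protein that takes part in decapping and decay of messenger RNA. The labels do not say what the pat1 mutation is or whether the mutant was 1 clone.

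TORC2 is a protein kinase complex at the plasma membrane that responds to membrane tension and to sphingolipid supply. Its main effectors, the protein kinases Ypk1 and Ypk2, are brought to the membrane by Slm1 and Slm2, are phosphorylated by TORC2, and are also phosphorylated by the Pkh kinases, the yeast relatives of mammalian PDK1. Active Ypk kinase relieves the Orm proteins' restraint on sphingolipid synthesis. YPK2 is also known as a transcriptional target of the cell wall integrity pathway, whose kinase Slt2 acts through the transcription factor Rlm1.

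Log2 signals ran from 2.33 to 14.32 over all probe sets, with array medians of 9.53 to 9.70. Arrays of the same group correlated at r = 0.973 to 0.994 across genes. PAT1 gave 10.50 to 10.93 on the wild type arrays and 2.95 to 3.94 on the pat1 arrays, the range of LEU2 and MET17 (2.95 to 4.20), which are deleted in BY4741. The 5 markers of mating type a lay between 10.96 and 13.66. Of the 4 alpha markers, MF(ALPHA)1 and MF(ALPHA)2 lay between 3.74 and 5.50, and SAG1 between 8.54 and 9.35. STE3 differed by strain, at 5.20 to 6.21 on wild type arrays and 6.32 to 7.33 on pat1 arrays. URA3, also deleted in this strain, stood apart on 2 arrays, at 7.71 on treated wild type array 2 and at 6.76 on untreated pat1 array 1, against 2.94 to 3.27 elsewhere. HIS3, partly deleted in BY4741, gave 10.53 to 11.18. The 9 genes lay between 7.51 and 10.94 on all arrays. Values are levels relative to the other transcripts of the same array, so a lower level cannot tell fewer cells with the transcript from less of it per cell.

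**Figure D1:**
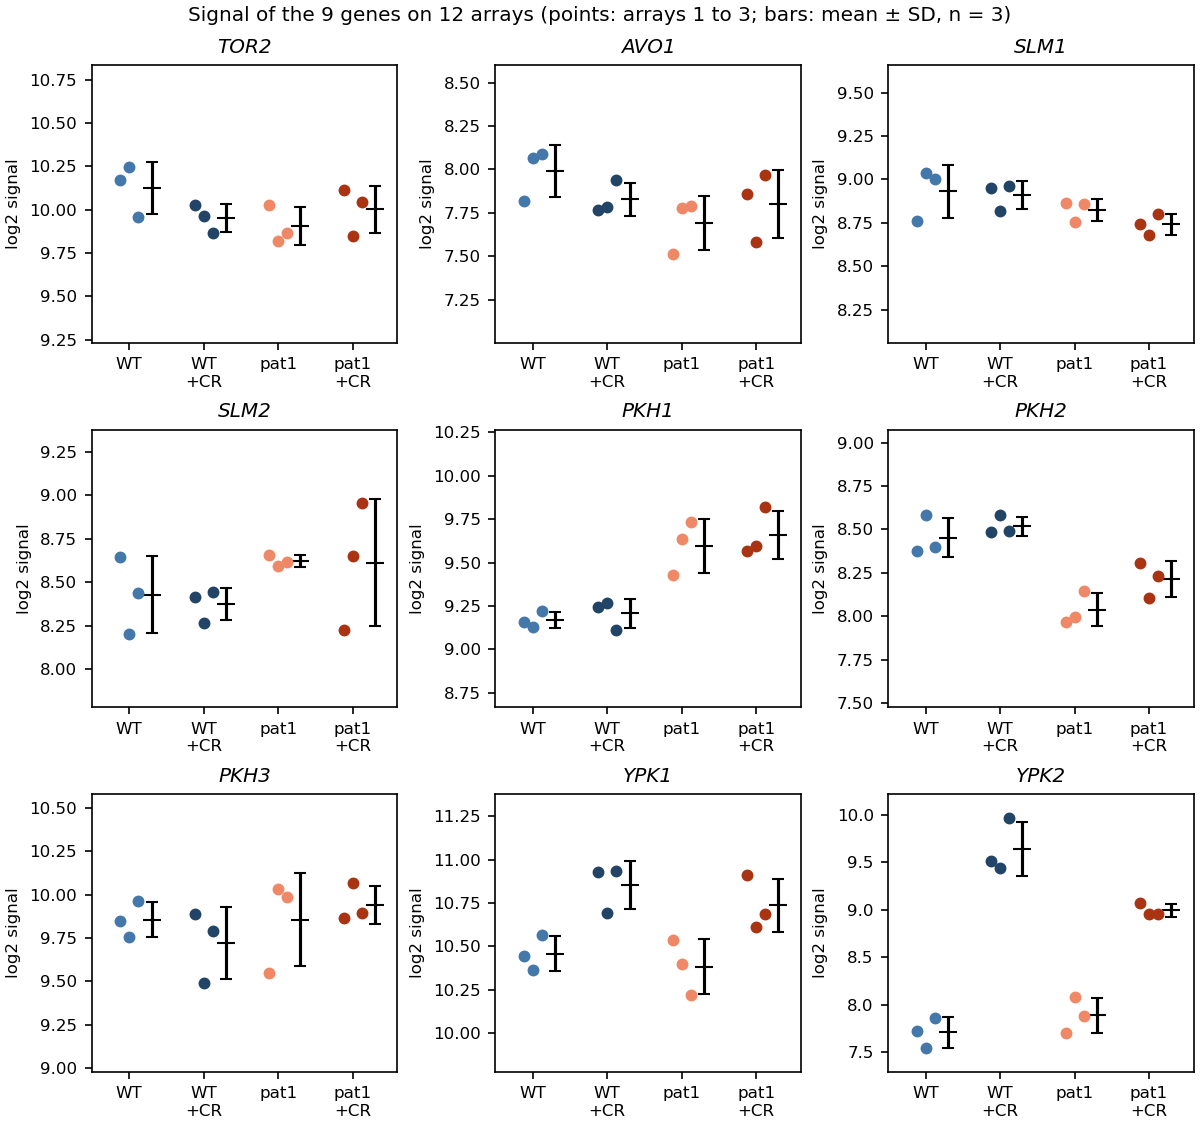
Log2 signal of the 9 genes on the 12 arrays, by group (WT, wild type; CR, Congo Red), with points for arrays 1 to 3 and black bars for the mean ± SD (n = 3). YPK2 separates treated from untreated arrays in both strains, YPK1 does so by less, and PKH1 and PKH2 separate the strains in opposite directions; panels differ in the position and span of their vertical axes.

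The first question was how the branch responded to Congo Red in wild type cells. Among the kinases at its end, YPK2 rose 3.82-fold. YPK1, its paralog and the more broadly required Ypk kinase, was higher on every treated array but did not pass the test across all genes. None of the other 7 genes passed in either direction. Thus 1 of the 9 genes rose and none fell, where 2.68% of all genes tested changed, 2.44% upward and 0.239% downward (limma, Benjamini-Hochberg adjusted p under 0.05).

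YPK2 gave 7.72, 7.54 and 7.86 on the untreated wild type arrays 1, 2 and 3. On the treated arrays of the same samples it gave 9.52, 9.44 and 9.97. The groups were far apart, and the lowest treated array lay above the highest untreated one. The difference was 1.93 ± 0.15 (SE, n = 3 per group, log2 scale; adjusted p = 3.85e-05 in limma), larger than that of 99.7% of genes or equal to it. It ranged from 1.77 to 2.04 when each of the 12 arrays was left out in turn, and passed each time. Without both arrays with URA3 signal it was 2.04 (limma adjusted p = 0.000232).

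YPK1 gave 10.44, 10.37 and 10.57 on the untreated wild type arrays and 10.93, 10.69 and 10.94 on the treated ones. These groups did not overlap either, as was the case with the treated group higher for 10.6% of all genes. None of the 9 genes was separated with the treated group lower, as 10.2% of all genes were. The difference was 0.39 ± 0.12 (SE, n = 3 per group, log2 scale; adjusted p = 0.151 in limma), with a 95% interval of 0.13 to 0.66. With a replicate block for the biological sample, which takes each treated array against its own untreated partner, YPK1 passed (limma adjusted p = 0.0127). In that fit 2 of the 9 genes rose, where 769 of all genes passed and 8.22% of all genes rose.

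The genes upstream of the Ypk kinases changed little in wild type. TOR2, the catalytic subunit of TORC2, differed by -0.17 ± 0.11 (SE, log2; limma adjusted p = 0.636). With the replicate block its interval was -0.34 to -0.003, without passing over all genes (limma adjusted p = 0.165). TOR2 lay at 10.17, 10.25 and 9.96 without drug and at 10.02, 9.97 and 9.86 with it, and the groups overlapped. AVO1, an essential subunit of the complex, differed by -0.16, with an interval of -0.45 to 0.12. SLM1 and SLM2, which bind phosphoinositides and bring Ypk kinase to TORC2, differed by -0.022 and -0.053. For SLM1 the sign turned under cyclic loess normalization. The intervals were -0.24 to 0.20 for SLM1 and -0.42 to 0.32 for SLM2. PKH1 and PKH2 differed by 0.038 and 0.068, with intervals of -0.20 to 0.28 and -0.15 to 0.29. PKH3, a less studied kinase related to them, differed by -0.13, with an interval of -0.46 to 0.19. Changes within these intervals cannot be told from 0 with 3 arrays per group.

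In the pat1 mutant the same gene rose. YPK2 gave 7.70, 8.08 and 7.89 on the untreated pat1 arrays. It gave 9.08, 8.95 and 8.96 on the treated ones, all above the untreated arrays. The rise was 2.16-fold, or 1.11 ± 0.15 on the log2 scale (SE, n = 3 per group; adjusted p = 0.00597 in limma), and it passed with each array left out (1.02 to 1.21) and without both arrays with URA3 signal (1.02, limma adjusted p = 0.0264). It was the only one of the 9 genes past the test, where 0.661% of all genes rose and none fell (30 genes fell at an unadjusted limma p under 0.05).

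YPK1 gave 10.54, 10.40 and 10.22 on the untreated pat1 arrays and 10.91, 10.61 and 10.69 on the treated ones, with no overlap. Such a separation upward occurred in 6.85% of all genes, and one downward in 1.3% of all genes and in none of the 9. Its difference of 0.35 ± 0.12 (SE, n = 3 per group, log2 scale) did not pass (limma adjusted p = 0.646, and 0.06 with the replicate block, where 1 of the 9 genes, YPK2, and 1.96% of all genes rose). The differences of the other 7 genes lay between -0.084 for SLM1 and 0.18 for PKH2. TOR2 differed by 0.097, AVO1 by 0.11, SLM2 by -0.009, PKH1 by 0.062 and PKH3 by 0.087, and the groups of each of the 7 overlapped. The value of PKH1 turned to -0.004 under cyclic loess normalization. SLM2 spread more among the treated pat1 arrays, at 8.23, 8.65 and 8.96, than among the untreated ones, at 8.66, 8.59 and 8.62.

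**Figure D2:**
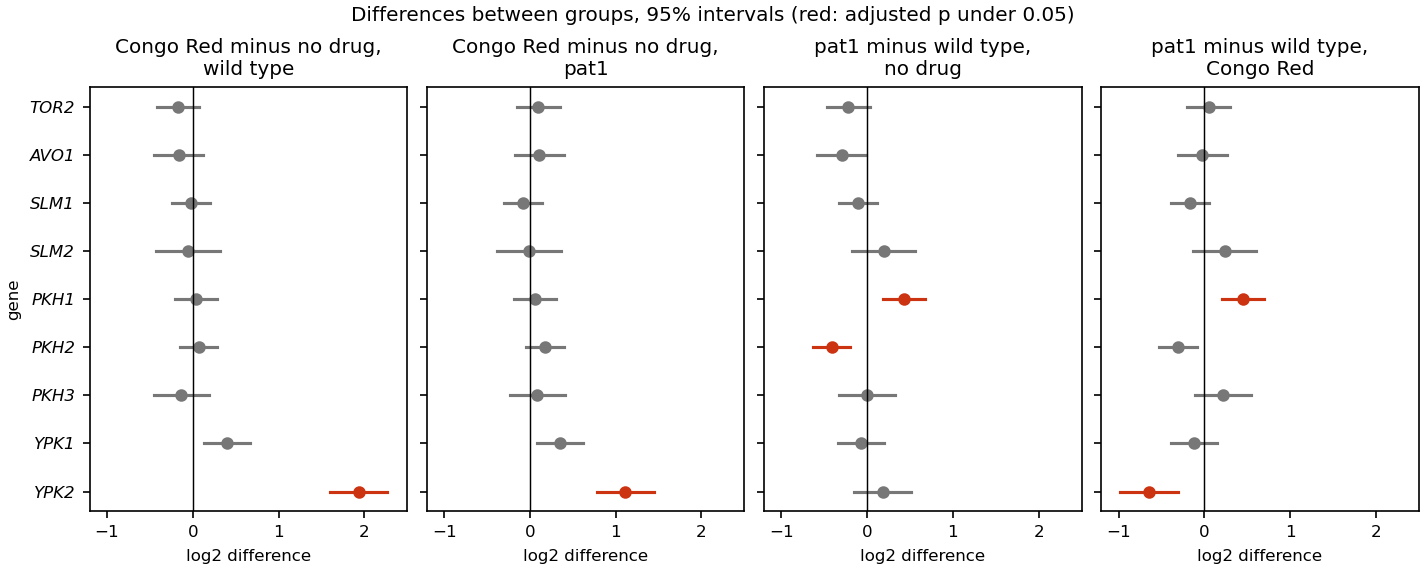
Log2 differences of the 9 genes in the 4 comparisons, as the estimate of the limma model (points) with its 95% interval (lines), n = 3 arrays per group; red marks an adjusted p under 0.05 over all 5449 genes. YPK2 stands out in both responses to Congo Red, and PKH1, PKH2 and YPK2 in the comparisons of the strains.

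The paralogs YPK1 and YPK2 were then compared by their changes within each biological sample, since levels of different probe sets cannot be set against each other. In wild type samples 1, 2 and 3 YPK2 changed by 1.31, 1.57 and 1.74 more than YPK1 on the log2 scale. In pat1 samples 1, 2 and 3 the gap was 1.00, 0.66 and 0.60. YPK2 thus responded more than YPK1 in 6 of 6 samples. The mean gap was 1.15 ± 0.47 (SD, n = 6 samples; exact sign-flip permutation test, two-sided p = 0.0312, the smallest that 6 samples allow). The gap was 1.54 ± 0.22 (SD, n = 3) in wild type and 0.76 ± 0.22 (SD, n = 3) in pat1, and the wild type samples all lay above the pat1 samples. The difference of -0.78 between the strains had the smallest p that 3 against 3 samples can give (exact permutation test, two-sided p = 0.1), so this exact test cannot reach 0.05. The gap shows unequal change, and not that YPK1 stayed constant. YPK1 was higher with drug in 6 of 6 samples, by 0.21 to 0.49. A change above 0 in all 6 samples was found in 3 of the 9 genes (YPK1, YPK2 and PKH2, the last not with arrays centred on their medians or under cyclic loess) and in 12.3% of all genes. A change below 0 in all 6 was found in none of the 9 and in 6.9% of all genes. Whether probes of one paralog also bind transcripts of the other was not tested, since probe sequences were not used here.

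**Figure D3:**
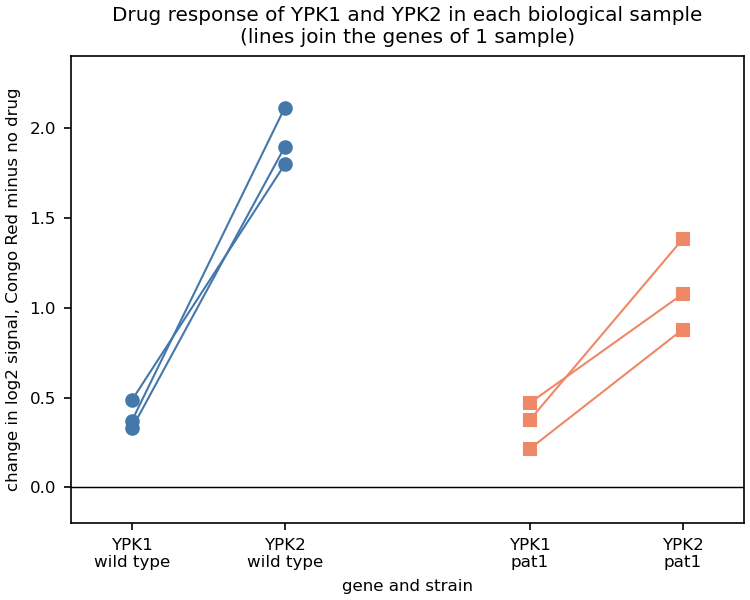
Change in log2 signal with Congo Red (treated minus untreated array of the same biological sample) for YPK1 and YPK2, with a line for each of the 3 wild type samples (circles) and the 3 pat1 samples (squares). Every line climbs from YPK1 to YPK2, and the YPK2 changes of wild type (1.80 to 2.11) lie above those of pat1 (0.88 to 1.38), while the YPK1 changes of the strains overlap. The share of all genes with changes separated by strain was not counted.

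The difference between the strains in the drug response was tested as an interaction. The changes of YPK2 in wild type, 1.80 to 2.11, lay above those in pat1, 0.88 to 1.38. How many of all genes had changes separated in this way was not counted. An exact permutation test of the strain labels gave the smallest p that 3 against 3 samples allow (two-sided p = 0.1). For YPK2 the interaction was -0.82 ± 0.21 (SE, n = 3 per group, log2 scale). This did not pass over all genes (limma adjusted p = 1, unadjusted p = 0.00264, and adjusted p = 0.13 with the replicate block). No gene at all passed this test in limma (0%). Its unadjusted limma p was under 0.05 for 130 genes, fewer than chance alone would give among 5449 genes. In the fit with the replicate block that number was 659. There 3 genes outside the branch (PRM10, YJL107C and YNR065C, 0.0551% of all genes) passed. For YPK1 the difference was -0.042, with an interval of -0.42 to 0.34. AVO1 had 0.27 (interval -0.14 to 0.67), and PKH3 had 0.22 (interval -0.24 to 0.68). SLM1, SLM2, PKH1 and PKH2 lay between -0.062 and 0.11. TOR2 had 0.27 (interval -0.082 to 0.62). With the replicate block its interval was 0.03 to 0.51, without passing over all genes (limma adjusted p = 0.372). TOR2 changed below 0 in every wild type sample and above 0 in every pat1 sample. Such opposite signs occurred in 1 of the 9 genes and in 2.37% of all genes.

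The genes whose values over the 12 arrays differed least from those of YPK2, each gene centred on its own mean, were HAL1, FLC2, SLT2, RLM1 and PTP2. HAL1, a gene of salt tolerance, differed from YPK2 by a root mean square of only 0.12 on the log2 scale, and rose by 2.03 in wild type (limma adjusted p = 6.49e-06) and by 1.23 in pat1 (limma adjusted p = 0.000536). FLC2, a putative flavin carrier, followed at 0.22, and SLT2, the mitogen-activated kinase of the cell wall integrity pathway, also at 0.22. SLT2 differed by 1.84 in wild type (limma adjusted p = 0.00087) and by 1.14 in pat1 (limma adjusted p = 0.0524, and 0.00324 with the replicate block). RLM1, the transcription factor downstream of Slt2, lay at 0.24 and PTP2, a phosphatase acting on mitogen-activated kinases, at 0.25. The drug response was smaller in pat1 for all of them, as for YPK2, without passing. The differences were -0.79 for HAL1, -0.33 for FLC2, -0.70 for SLT2, -0.19 for RLM1 and -0.66 for PTP2. The likenesses to YPK2 are a description over arrays of 4 groups that share a few large differences. These genes were picked for likeness to YPK2 over these same arrays, the pat1 arrays included. Their smaller response in pat1 is thus largely fixed by the choice and is no separate result.

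**Figure D4:**
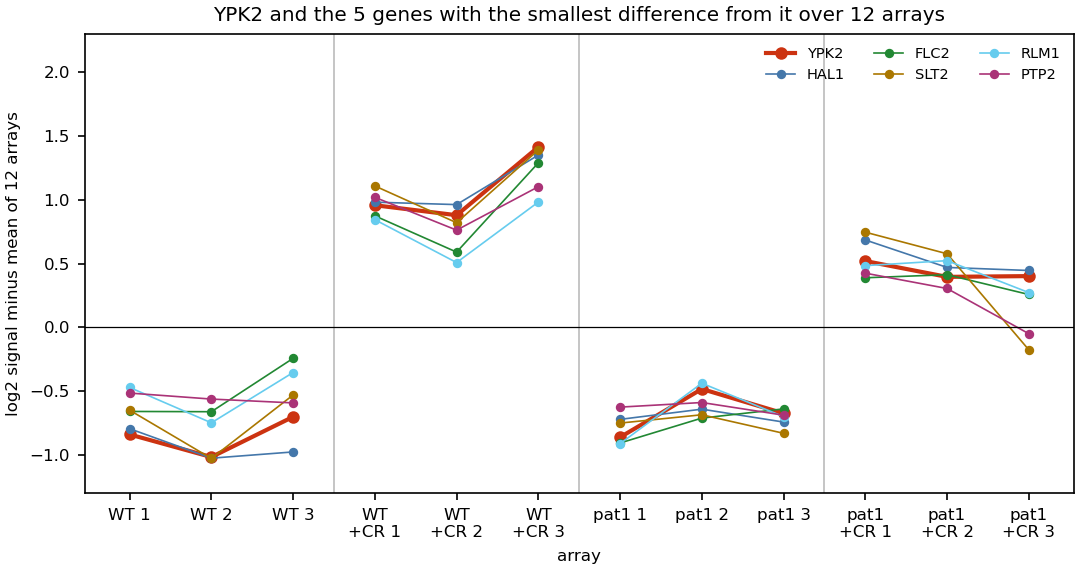
Log2 signal minus the gene's own mean over the 12 arrays for YPK2 (thick red line) and the 5 genes that differed least from it, by array (horizontal axis) in the 4 groups. All 6 genes are low on untreated arrays and high on treated wild type arrays; on treated pat1 array 3, SLT2 (-0.175) and PTP2 (-0.049) fall below their means while YPK2 stays at 0.40.

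Cell wall integrity targets other than YPK2, a list written with earlier results of these data known, gave the setting of its response. Of 22 genes, 20 rose in wild type and 13 in pat1, where 2.44% and 0.661% of all genes rose. The medians were 1.47 and 0.86, where all genes had medians of -0.029 and 0.041. With the replicate block 22 rose in wild type and 18 in pat1, where 8.22% and 1.96% of all genes rose. The counts of the strains were closer in that fit. None of the 22 passed the test of the difference between strains in either fit. No gene of the array passed it without the block, and 3 of all genes did with it, so these counts say little about the list. The median of this difference was -0.43 against 0.058 for all genes, and 1 of the 22 lay above 0. The response of YPK2 to the drug was above the list median in wild type and in pat1. Without drug 1 of the 22 was higher in pat1 and none lower, where 3.51% of all genes were higher and 2.94% lower. The median was -0.043, and 8 of the 22 lay above 0. The higher gene was GSC2 (1.54, limma adjusted p = 0.0027, past with every array left out), so its smaller response in pat1 started from a higher level. In the mutant under Congo Red 7 of the 22 were lower than in wild type and none was higher. Of all genes, 2.18% were lower and 4.26% higher. The median of the list was -0.60 against 0.044 for all genes. The 7 lower genes of the list included PIR3 (-1.74), which encodes a cell wall protein, KDX1 (-1.23), a kinase related to Slt2, and CRG1 (-1.18). BAG7, which encodes a protein that stimulates the GTPase activity of Rho1, differed by -1.37 without passing (limma adjusted p = 0.0613).

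Without drug, the comparison of the mutant with wild type asks how the branch stood in unstressed pat1 cells. Of the 3 Pkh kinases, PKH1 and PKH2, partly redundant activators of the Ypk kinases and of Pkc1, differed in opposite directions, and PKH3 did not pass. None of the other 6 members passed. PKH1 was 1.35-fold higher in pat1 and PKH2 1.33-fold lower. So 1 of the 9 genes was higher and 1 lower, where 6.44% of all genes differed, 3.51% higher and 2.94% lower.

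PKH1 gave 9.16, 9.13 and 9.22 in untreated wild type and 9.43, 9.64 and 9.73 in untreated pat1. Every pat1 array lay above every wild type array. The difference was 0.43 ± 0.11 (SE, n = 3 per group, log2 scale; adjusted p = 0.045 in limma). PKH2 gave 8.37, 8.58 and 8.40 in untreated wild type and 7.97, 7.998 and 8.15 in untreated pat1, again with no overlap. It fell by 0.41 ± 0.10 (SE, n = 3 per group, log2 scale; adjusted p = 0.0374 in limma). Groups did not overlap, with pat1 higher, in 12% of all genes, and with pat1 lower in 14.9%.

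Both calls lay close to the threshold, and neither passed in a fit of only the groups compared. With arrays left out in turn, PKH1 passed in 2 of 12 cases (with untreated pat1 array 1 or the treated pat1 array 3 left out; difference 0.36 to 0.52, limma adjusted p 0.0369 to 0.127). PKH2 passed in 4 of 12 cases (with any of treated wild type array 2 or treated pat1 array 1, 2 or 3 left out; difference -0.47 to -0.35, limma adjusted p 0.0413 to 0.0926). Without both arrays with URA3 signal, neither passed (PKH1 0.52, limma adjusted p = 0.0579, and PKH2 -0.38, limma adjusted p = 0.108). Of the mating type markers, the alpha marker STE3 was 1.26 higher in untreated pat1 (limma adjusted p = 0.038), and none of the other 8 passed. Its part in the differences of PKH1 and PKH2 was not tested.

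YPK2 itself did not pass without drug, at 0.18 ± 0.15 (SE, n = 3 per group, log2 scale; adjusted p = 0.507 in limma), and YPK1 lay at -0.075 (interval -0.34 to 0.19). AVO1 was lower on every pat1 array, with 7.51, 7.78 and 7.79 against 7.82, 8.06 and 8.09, as were 14.9% of all genes. The AVO1 difference of -0.30 ± 0.13 (SE, n = 3 per group, log2 scale) did not pass (limma adjusted p = 0.191). TOR2 differed by -0.22 (interval -0.47 to 0.029), SLM1 by -0.11 (interval -0.33 to 0.12) and SLM2 by 0.19 (interval -0.18 to 0.56). PKH3 had the same mean in both strains, 9.86, with an interval of the difference of -0.32 to 0.32.

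Under Congo Red the comparison of the strains asks how the branch stood in stressed cells. YPK2 was 1.56-fold lower in pat1 than in wild type, and PKH1 was 1.37-fold higher. Hence 1 of the 9 genes was lower and 1 higher, where 6.44% of all genes differed, 2.18% lower and 4.26% higher. In a fit of only the groups compared, none of the 9 passed. Of the 9 mating type markers, BAR1, a marker of mating type a, was lower in treated pat1 by -0.53 (limma adjusted p = 0.016), and STE3 was 0.91 higher without passing (limma adjusted p = 0.105). Their part in the differences of YPK2 and PKH1 was not tested.

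For YPK2 the treated wild type arrays, at 9.44 to 9.97, all lay above the treated pat1 arrays, at 8.95 to 9.08. Such a separation downward occurred in 11.5% of all genes. The difference was -0.64 ± 0.15 (SE, n = 3 per group, log2 scale; adjusted p = 0.0339 in limma). It did not pass in 6 of the 12 cases with an array left out, namely untreated wild type array 1, treated wild type array 1 or 3 and treated pat1 array 1, 2 or 3 (-0.75 to -0.48 over all 12 cases, limma adjusted p 0.0281 to 0.111). Without both arrays with URA3 signal it was -0.75 (limma adjusted p = 0.0383).

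PKH1 gave 9.25, 9.26 and 9.11 in treated wild type and 9.56, 9.59 and 9.82 in treated pat1. Every pat1 array was above every wild type array, as 18.2% of all genes showed, and 8.18% of all genes showed it both without and with drug, as PKH1 did. The difference was 0.45 ± 0.11 (SE, n = 3 per group, log2 scale; adjusted p = 0.035 in limma). It did not pass without untreated wild type array 1, treated wild type array 1, 2 or 3, or treated pat1 array 2 or 3 (limma adjusted p 0.0252 to 0.13 over all 12 cases), nor without both arrays with URA3 signal (0.48, limma adjusted p = 0.0519). PKH2 gave 8.48, 8.58 and 8.49 in treated wild type and 8.31, 8.10 and 8.23 in treated pat1, with no overlap. Its difference of -0.30 ± 0.10 (SE, n = 3 per group, log2 scale) did not pass (limma adjusted p = 0.093), but did under cyclic loess normalization (-0.38, limma adjusted p = 0.0464). PKH2 was below wild type with no overlap in both conditions, as were 6.75% of all genes.

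Within arrays, PKH1 relative to PKH2 was higher in pat1 than in wild type by 0.80 on the log2 scale, with the arrays of a biological sample averaged. The samples of the strains did not overlap, with the smallest p that 3 against 3 samples allow (exact permutation test, two-sided p = 0.1), and this comparison was chosen after the values were seen. The comparisons of the strains without and with drug have no arrays in common, but their arrays come from the same biological samples. Each also shares its arrays with the drug responses.

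Of the remaining genes under Congo Red, SLM1 was lower on every pat1 array, at 8.74, 8.68 and 8.80 against 8.95, 8.82 and 8.96. So were 11.5% of all genes, and the difference of SLM1 was -0.17 (interval -0.39 to 0.053). SLM2 had 0.24 (interval -0.13 to 0.61), PKH3 0.22 (interval -0.10 to 0.54), YPK1 -0.12 (interval -0.39 to 0.15) and AVO1 -0.026 (interval -0.31 to 0.26). TOR2 had 0.05 (interval -0.20 to 0.30), and turned to -0.003 with arrays centred on their medians and to -0.023 under cyclic loess normalization.

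The levels of the 4 groups can be ordered for the paralogs. For YPK2 the order of the means was untreated wild type (7.71 ± 0.16), untreated pat1 (7.89 ± 0.19), treated pat1 (8.997 ± 0.07) and treated wild type (9.64 ± 0.29; SD, n = 3 each), and of neighbours in this order only the untreated groups did not differ past the test. For YPK1 it was untreated pat1 (10.38 ± 0.16), untreated wild type (10.46 ± 0.10), treated pat1 (10.74 ± 0.16) and treated wild type (10.85 ± 0.14), and within a treatment the strains overlapped.

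Other genes that work with the branch were described by lists, with no test of a list. The other 5 subunits of TORC2 (AVO2, TSC11, LST8, BIT2 and BIT61) had no gene past the test in any comparison, with medians of -0.008 and 0.09 for the drug in wild type and pat1. AVO2 was higher on every treated wild type array, as 10.6% of all genes were, by 0.37 (limma adjusted p = 0.131). It passed with the replicate block, where 8.22% of all genes rose. The 4 genes of TORC1 (TOR1, KOG1, TCO89 and LST8, shared with TORC2) had none past the test either, with medians of -0.042 and 0.14 for the drug and -0.039 and 0.13 between the strains without and with it.

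Of 8 genes that make or turn over membrane phosphoinositides, none passed for the drug in either strain (medians 0 and -0.003). With the replicate block INP52, a phosphoinositide phosphatase, rose and EFR3, which anchors the phosphatidylinositol kinase Stt4, fell in wild type. In that fit 769 of all genes passed and 8.22% rose. Without the block, SFK1, a membrane protein that acts with Stt4, was 0.91 higher in untreated pat1 (limma adjusted p = 0.0161, past the test in 9 of 12 cases with an array left out). MSS4, the kinase that forms the lipid bound by Slm1 and Slm2, fell by 0.40 there (limma adjusted p = 0.0444, past the test in 1 of 12 cases). In that comparison 3.51% of all genes were higher and 2.94% lower. Under Congo Red INP52 was lower in pat1 by -0.61 (limma adjusted p = 0.0389, past in 4 of 12 cases), as were 2.18% of all genes. The medians of the list between the strains were -0.26 without and -0.10 with drug.

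Of 11 substrates of the Ypk kinases, MUK1, a guanine nucleotide exchange factor of Rab proteins, rose in wild type by 0.78 (limma adjusted p = 0.035, past the test in 5 of 12 cases with an array left out), and none passed in pat1 (medians 0.10 and 0.11). Of all genes, 2.44% rose in wild type and 0.661% in pat1. With the replicate block 4 of the 11 rose in wild type, namely MUK1, GPD1, ORM2 and ROD1, where 8.22% of all genes rose. YSP2, a sterol transfer protein, was lower in pat1 by -0.55 without drug (limma adjusted p = 0.0196, past in 9 of 12 cases) and by -0.48 with it (limma adjusted p = 0.0293, past in 6 of 12 cases). Among all genes 2.94% were lower without drug and 2.18% with it. The medians of the list between the strains were 0.015 and -0.12.

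Of 29 genes of sphingolipid synthesis and turnover, which share LAC1 and LAG1 with the substrates, 2 rose in wild type, where 2.44% of all genes rose. SUR1, a subunit of mannosylinositol phosphorylceramide synthase, rose by 1.02 (limma adjusted p = 0.00431) and passed with every array left out. IPT1, which makes the last complex sphingolipid of the pathway, rose by 0.70 (limma adjusted p = 0.0484, past in 2 of 12 cases). With the replicate block 4 rose and 1 fell in wild type, where 769 of all genes passed and 8.22% rose. In pat1 SUR1 alone rose in that fit, where 1.96% of all genes did. The medians for the drug were -0.065 and 0.11. Between the strains the medians were -0.031 and -0.008, and LCB3, a long-chain base phosphate phosphatase, was 0.80 higher in treated pat1 (limma adjusted p = 0.00625, past with every array left out). In that comparison 4.26% of all genes were higher.

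Among 8 phosphatase genes, CMP2, a catalytic subunit of calcineurin, a phosphatase that acts on Slm proteins, rose by 0.66 in wild type (limma adjusted p = 0.00217, past with every array left out) and by 0.47 in pat1 (limma adjusted p = 0.0462, past in none of the 12 cases). Among all genes 2.44% rose in wild type and 0.661% in pat1. CDC55, a regulatory subunit of protein phosphatase 2A, fell by 0.50 in untreated pat1 (limma adjusted p = 0.0315, past in 7 of 12 cases), where 2.94% of all genes were lower. The medians of the list were 0.03 and 0.13 for the drug and -0.17 and -0.16 between the strains without and with it. Of 11 measured kinases of the same AGC class, none passed for the drug (medians 0.013 and 0.08). With the replicate block CBK1 and DBF2 rose and YPK3 fell in wild type, where 769 of all genes passed and 8.22% rose. Without drug YPK3 (-0.58, limma adjusted p = 0.0233, past in 8 of 12 cases) and SCH9 (-0.57, limma adjusted p = 0.0497, past in 2 of 12 cases) were lower in pat1, as were 2.94% of all genes. With drug TPK3, a catalytic subunit of protein kinase A, was 0.69 higher (limma adjusted p = 0.0102, past with every array left out), as were 4.26% of all genes. The medians between the strains were -0.23 and -0.29.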

How the data were processed

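Total RNA of 12 samples was hybridised to 1 array each. The deposited table holds log2 values per probe set, made by the authors with RMA (background correction, normalization and summary) per the submitters' processing notes, with no version named. Coordinates are not printed, as no build was stated. Arrays have no read depth, and their number limits the precision. The values were used without further scaling.

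Of 5739 probe sets, 23 were controls, 218 had no listed gene and 5498 had 1 symbol from the platform annotation, 12 of them updated through the Entrez number with the RefSeq gene table (assembly R64). The brightest probe set was kept for 47 genes with more than 1, which left 5449 genes. A limma model of 4 group means was fitted to all 12 arrays (lmFit, eBayes; residual degrees of freedom 8). Its threshold was an adjusted p of 0.05 (Benjamini-Hochberg, all genes). Changes per biological sample were compared with exact permutation tests. R 4.3.3, limma 3.58.1, Python 3.11.15, pandas 2.3.3 and matplotlib 3.10.9 were used. The wild type drug response of this model was tested on simulated arrays without pairing, and the sign-flip test on random draws. The replicate block, the comparisons of the strains and the interaction were not tested on simulated data.

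The design text pairs the arrays of a biological sample. Deviations from the group means correlated across genes at 0.616 to 0.801 for arrays of the same sample (0.1 was the bound), so the replicate block (4 residual degrees of freedom) was given beside the drug responses it changed. The comparisons of the strains were fitted without a block. There the paired arrays counted as independent in the estimate of the spread, although they were not. The same holds for the SEs and intervals of the drug responses and of their difference between strains, unless the block is named. Other alternatives were arrays centred on medians, cyclic loess, a robust, trended eBayes, a filter that removed the dimmest 25% of genes, only the groups compared, the mean of all probe sets, and each array left out. Leaving out both arrays with URA3 signal was chosen after the data were seen.

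The members and lists were chosen with earlier results of these data known. The lists were the other TORC2 subunits, phosphoinositide genes, Ypk substrates, sphingolipid genes, phosphatases, other AGC kinases, TORC1, cell wall integrity targets, and markers of mating type and strain. All members, PAT1, up to 4 genes per list and comparison with the largest difference and the 5 genes most like YPK2 (smallest root mean square difference) were named by rule. Other genes were named after their values were seen. A planned search of promoters and comparison of proteins were not run, since no sequences were used here.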

Additional observations from a re-analysis of the deposited data

Results flagged for a closer look

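TOR2 was singled out because its drug response had opposite signs in the strains in every biological sample. It changed by -0.28 to -0.091 in the 3 wild type samples and by 0.027 to 0.18 in the 3 pat1 samples. Between the strains the responses differed by 0.27 ± 0.16 (SE, n = 3 per group, log2 scale). It did not pass in limma (adjusted p = 1, unadjusted p = 0.12). With the replicate block the interval was 0.03 to 0.51, again without passing (limma unadjusted p = 0.0318, adjusted p = 0.372). The signs stayed opposite with arrays centred on their medians and under cyclic loess normalization, where the differences were 0.21 and 0.18. Of all genes, 2.37% had responses of opposite sign in every sample, so such a pattern is not rare, and groups of 3 arrays were too small for a test of single outlying arrays.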

How the results depend on the processing

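The rise of YPK2 with Congo Red passed in both strains under every alternative run. The replicate block changed the number of genes past the test to 769 in wild type (2 of the 9 members, YPK1 added), 126 in pat1 and 3 for the difference between strains, and changed no other call of a member. In pat1 the drug response had 22 genes under cyclic loess and 11 with the 2 groups alone. Between the strains without drug, 24 genes and 0 members passed with the 2 groups alone, 1 member without the dimmest 25% of genes (which removed PKH2, AVO1 and SLM2), and 89 genes and 0 members without both arrays with URA3 signal. Under Congo Red, 210 genes and 0 members passed with the 2 groups alone, and 196 genes and 1 member (YPK2) without both URA3 arrays. The cause of these shifts was not tested. The gap between the YPK2 and YPK1 responses was 1.08 without the biological samples of the URA3 arrays, where the smallest p possible is 0.125. With single arrays left out, genes past the test ranged from 72 to 161 for the drug in wild type, 13 to 39 in pat1, 58 to 363 between untreated and 92 to 446 between treated strains, and 0 to 3 for the difference in response. Members past the test ranged from 0 to 2 in both comparisons of strains. With single biological samples left out, the YPK2 and YPK1 gap ranged from 1.03 to 1.26 (exact sign flips, p = 0.0625, the smallest that 5 samples allow). No called value changed its sign.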
